A study of Mus musculus with 4 samples.

Results

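The genes described here encode the enzymes and carriers of glycolysis and a set of transcriptional targets of the hypoxia-inducible factors (HIFs). They were taken as a list of 38 symbols, chosen with earlier results of these data known. It held 18 glycolytic enzymes, 6 carriers and pyruvate dehydrogenase kinases, 12 hypoxia targets and the 2 HIF alpha subunits Hif1a and Epas1. The other gene lists below were chosen likewise, so a share of genes called is a description and not a test of a list. Of the 38, 33 had a probe set naming that gene alone and were tested, among 22180 genes tested in all. Aldoa, Bnip3l and Ankrd37 were measured only by probe sets that also name a second gene, and Gpi1 and Eno1 were not analysed here. Expression was profiled on 4 Affymetrix arrays, 2 at day 4 and 2 at day 7 of retinal differentiation, of aggregates grown in matrigel from mouse embryonic stem cells. All 4 samples were labelled wild type and came from an Rx-GFP line derived from EB5, of strain 129/Ola. In this line a GFP gene was inserted under the promoter of Rx (Rax), a gene of the early eye field. A single line was used, and the days differed only in time in culture as far as the labels say. Because nothing states that replicates were independent cultures, the p-values cover the spread between these arrays only, and that spread could be technical.

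Glycolysis splits glucose into pyruvate in the cytosol, and lactate dehydrogenase turns pyruvate into lactate, which leaves the cell through monocarboxylate carriers. HIF alpha subunits are hydroxylated by Egln enzymes when oxygen is present and then destroyed. When oxygen is scarce they persist, pair with Arnt and bind short sites with a CGTG core near genes of glucose uptake, glycolysis, mitophagy and blood vessel growth. Pluripotent cells are known for high glycolytic activity, and the balance towards respiration shifts as neural cells form.

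By day 7 the change was uneven. limma called 7 of the 33 genes lower (21.2%) and 0 higher, against 4.33% called lower and 6.15% called higher among all genes tested (10.5% either way). At an unadjusted p under 0.05, 13 were lower and 2 higher in the same fit, against 10.5% and 12.6% of all genes. The 7 were Pfkp, Aldoc and Ldha of the enzymes, the lactate exporter gene Slc16a3, and the hypoxia targets Egln3, Adm and Bnip3. The falls ranged from 2.03-fold (Ldha) to 3.52-fold (Egln3), apart from Adm, whose day 7 signal was so low that its 4.01-fold may be too small. The median log2 difference, day 7 minus day 4, was -0.23 over the 33 genes and -0.0036 over all genes. With 1 array left out the median of the 33 ran from -0.36 to -0.17. For 18 of the 33 both day 7 arrays read below both day 4 arrays, as for 25.1% of all genes, and for 4 both read above, as for 25.6%. The number called lower depended on single arrays: it was 3 without day 7 replicate 1, where Bnip3, Ldha, Pfkp and Slc16a3 were not called. It was 13 when the variance prior followed the signal level. That fit also called 2 genes higher, Eno3 and Epas1.

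**Figure D1:**
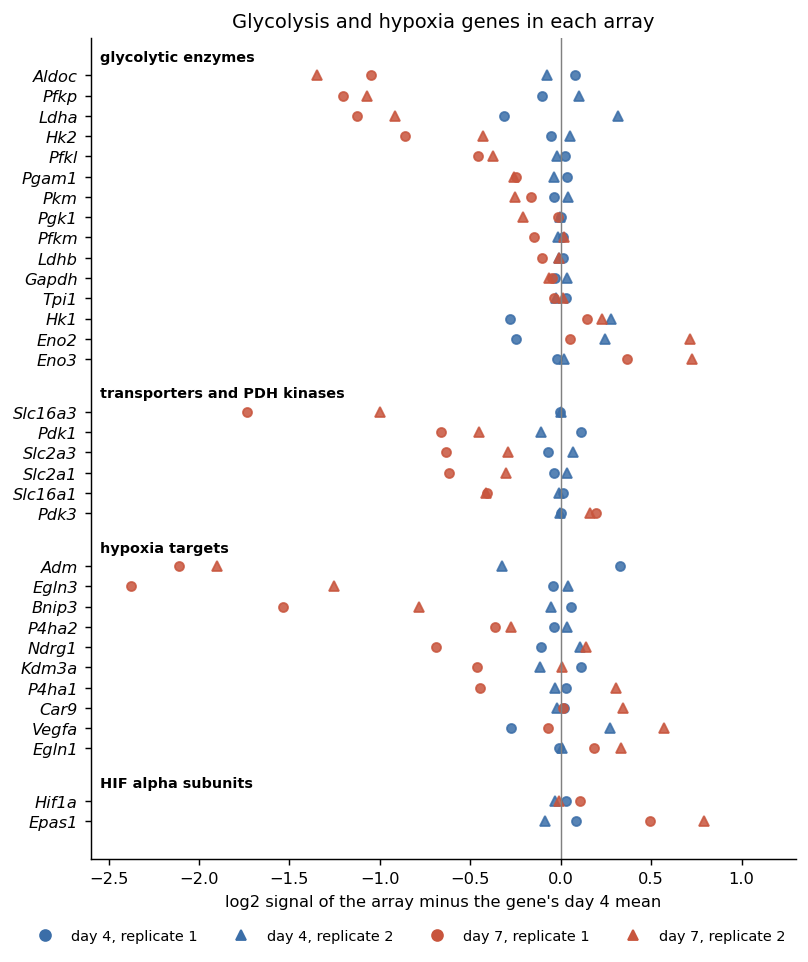
Log2 signal of each of the 33 tested genes in each array, minus the mean of the gene at day 4 (x axis), by group (rows). Blue marks are day 4 and red marks day 7, with circles for replicate 1 and triangles for replicate 2. Adm, Egln3, Slc16a3, Bnip3, Aldoc, Pfkp and Ldha stand apart on the left, while Gapdh, Tpi1 and Ldhb lie near 0.

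Array medians ran from 5.68 to 5.77 log2, but the normalization makes medians alike, so they do not show that the arrays were. Arrays of the same day correlated with r = 0.986 (day 4) and 0.991 (day 7) over probe sets, which are not independent. Between days r ran from 0.972 to 0.978. Eye field genes rose in 5 of 9 cases (Rax, Pax6, Lhx2, Nr2e1 and Mitf). Rax itself had a log2 difference of 1.51 (adjusted p = 0.021). It was not called without day 4 replicate 1 or without day 7 replicate 2 (highest adjusted p 0.119). Cell identity moved with the day: 7 of 11 pluripotent and epiblast markers fell and 8 of 10 neural progenitor markers rose. Of these, Sall4, Nes, Fabp7, Msi1 and Notch1 were not called with at least 1 of the day 7 arrays left out. Over all genes 4.33% were called lower and 6.15% higher. The log2 of the summed signal of the pluripotent list lay between 14.18 and 14.29 at day 4 and between 12.49 and 12.67 at day 7. That of the neural progenitor list lay between 12.66 and 12.68 and between 13.64 and 13.73. Such sums are weighted to the brightest probe sets, at day 4 Dnmt3b and Utf1 in the pluripotent list, and do not describe every gene of a list. Of 10 neuron markers 5 rose and 1 fell (Stmn2, 1.96-fold, not called without day 7 replicate 1). Isl1, among those that rose, was not called without day 7 replicate 1 either. Of 10 neural crest and mesenchyme markers 6 rose and 1 fell (Foxd3, 2.07-fold, not called without day 4 replicate 1 or either day 7 array). Of 10 endoderm markers 2 rose and 1 fell (Cer1, 4.16-fold), and of 9 mesoderm and endothelial markers 1 rose and 0 fell. Sox17, an endoderm marker that rose, was not called without day 4 replicate 1 or either day 7 array. Kdr, the mesoderm and endothelial marker that rose, was not called with either day 4 array or day 7 replicate 2 left out. No marker is at 0 on an array scale. The part of these cell types in the results below was not tested, and in such bulk RNA fewer cells of a type and less RNA per cell cannot be told apart.

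Promoters of the 4 genes with the largest called falls that hold a HIF core motif are shown here, since these genes moved the same way. The motifs searched were ACGTG and GCGTG on either strand, in the 250 bases before the transcription start, and matches are in capitals. Sequences are from RefSeq, build GRCm38.p6, written 5′ to 3′ on the strand of the gene. Adm is at chr7:110627407-110627656 (+ strand), Egln3 at chr12:54203875-54204124 (- strand), Slc16a3 at chr11:120948817-120949066 (+ strand) and Aldoc at chr11:78322823-78323072 (+ strand).
Adm: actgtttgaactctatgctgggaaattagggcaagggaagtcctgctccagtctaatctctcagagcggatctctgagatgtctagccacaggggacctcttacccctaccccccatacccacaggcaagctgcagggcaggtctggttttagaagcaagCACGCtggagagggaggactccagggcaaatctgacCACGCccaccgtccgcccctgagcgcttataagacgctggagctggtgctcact
Egln3: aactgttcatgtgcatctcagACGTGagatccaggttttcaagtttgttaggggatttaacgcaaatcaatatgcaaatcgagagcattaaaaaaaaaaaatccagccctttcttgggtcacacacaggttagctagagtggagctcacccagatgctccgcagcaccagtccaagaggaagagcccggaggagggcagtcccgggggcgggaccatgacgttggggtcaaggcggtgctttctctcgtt
Slc16a3: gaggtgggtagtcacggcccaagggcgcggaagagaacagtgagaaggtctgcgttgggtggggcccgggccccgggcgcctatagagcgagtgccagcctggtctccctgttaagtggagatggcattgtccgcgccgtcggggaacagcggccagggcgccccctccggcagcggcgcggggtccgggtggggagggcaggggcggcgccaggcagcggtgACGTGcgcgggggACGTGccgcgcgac
Aldoc: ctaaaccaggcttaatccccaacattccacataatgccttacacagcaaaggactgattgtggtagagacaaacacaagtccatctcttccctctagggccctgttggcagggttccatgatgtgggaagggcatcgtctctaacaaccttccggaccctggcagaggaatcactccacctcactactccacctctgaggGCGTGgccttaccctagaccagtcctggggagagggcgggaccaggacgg
Adm holds 2 matches, which begin at positions -90 and -54 from the start, both GCGTG read on the other strand. Egln3 holds 1, an ACGTG at -229. Slc16a3 holds 2 ACGTG close together, at -27 and -14, and Aldoc 1 GCGTG at -50.

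These letters are common. Of 16990 tested genes with a promoter in the table, 47.8% held ACGTG or GCGTG in any promoter listed for them, against 31 of 34 listed genes (91.2%) with a promoter there. The share was 15 of 18 for the enzymes and 10 of 10 for the hypoxia targets. Both motifs contain a CG pair, and the listed genes had more such pairs, with a median of 16.5 in the window against 11 over the tested genes. They also had more promoters per gene, 1.44 against 1.21 on average. With only the first promoter of each gene, 27 of the 34 (79.4%) held a motif against 44.6%. Every CACGTG, the E-box, contains ACGTG, and 5 of the 34 held one (14.7%, with 7.83% over the tested genes). The parts of CG content and promoter number in this difference were not tested. The motif was in 7 of 7 genes called lower and in 21 of 23 that were tested, not called and had a promoter listed. A match is a run of letters and not a measured binding site.

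Hexokinase traps glucose in the cell. Hk2, the inducible isoform, read 9.56 and 9.66 log2 at day 4 and 8.75 and 9.18 at day 7. Both day 7 arrays lay below day 4, but the difference of -0.64 (SE 0.180) was not called (adjusted p = 0.0696, 0.0182 to 0.392 over the alternatives). Hk1, the isoform typical of brain, read 7.02 and 7.58 at day 4 and 7.44 and 7.53 at day 7. Its days overlapped (adjusted p = 0.683).

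Phosphofructokinase commits sugar phosphates to glycolysis, and its 3 subunit genes differed. Pfkp, the platelet-type subunit, read 10.43 and 10.63 at day 4 and 9.33 and 9.46 at day 7. It was 2.20-fold lower at day 7 (difference -1.14 log2, SE 0.150, adjusted p = 0.00413). With day 7 replicate 1 left out the adjusted p was 0.0513. Pfkl, the liver-type subunit, read 11.60 and 11.55 at day 4 and 11.12 and 11.20 at day 7. Its days did not overlap, but the log2 difference of -0.42 was not called (adjusted p = 0.119). Pfkm, the muscle-type subunit, differed by -0.066 log2 with overlapping days (adjusted p = 0.865).

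Aldolase cleaves fructose 1,6-bisphosphate, and Aldoc is its brain-type isoform. Aldoc read 9.96 and 9.81 at day 4 and 8.83 and 8.54 at day 7, so the days stood about 1 log2 unit apart. It was 2.29-fold lower at day 7 (difference -1.20 log2, SE 0.162, adjusted p = 0.00457). Its call held with each array left out, at an adjusted p of 0.0474 or less. Aldoa, the widely expressed isoform, was seen only by a probe set that also names Aldoart1. That probe set read 7.57 and 7.01 at day 4 and 7.02 and 6.66 at day 7, and the days overlapped (adjusted p = 0.3).

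The enzymes in the middle of the pathway were not called. Tpi1, which interconverts the triose phosphates, had a log2 difference of -0.014 (adjusted p = 0.978). Gapdh, which oxidises glyceraldehyde 3-phosphate and often serves as a reference gene, had -0.055 (adjusted p = 0.885). Its 3 own probe sets differed between days by -0.070 to 0.083. Gapdh has many near-identical pseudogenes, and 8 more probe sets name it together with another gene or pseudogene, so its signal cannot be assigned to a single locus. Pgk1, the first ATP-forming step, had -0.11 (adjusted p = 0.749). All 3 genes were among the brightest on the arrays, with means over the 4 arrays of 12.43 (Tpi1), 13.19 (Gapdh) and 12.76 (Pgk1) and a highest gene mean of 13.64. Whether signal this high still follows the amount of RNA was not tested, so the small differences do not show that their levels stayed the same.

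Phosphoglycerate mutase gave 2 answers. The Pgam1 probe set with the higher mean read 11.51 and 11.44 at day 4 and 11.22 and 11.21 at day 7, a log2 difference of -0.25 (adjusted p = 0.346). Another probe set naming Pgam1 alone read 10.74 and 11.04 against 9.85 and 9.85, a log2 difference of -1.04. Both were lower at day 7 in every array, and the mean of the pair was called (adjusted p = 0.0268). Pgam1 also has processed copies in the genome, and which probe set follows the gene was not tested.

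Of the enolases, Eno2 is the neuronal and Eno3 the muscle isoform. Eno2 read 6.52 and 7.01 at day 4 and 6.82 and 7.49 at day 7, with overlapping days (adjusted p = 0.473). Eno3 read 9.76 and 9.80 at day 4 and 10.15 and 10.51 at day 7. Eno3 had the highest log2 difference among the enzymes, 0.55 (SE 0.167), with days apart but no call (adjusted p = 0.0919, 0.0197 to 0.469 over the alternatives). Pkm, the pyruvate kinase of nearly all tissues, had a log2 difference of -0.21 (adjusted p = 0.461).

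Lactate dehydrogenase is built from the products of Ldha and Ldhb. Ldha, whose subunit favours lactate formation, read 8.76 and 9.39 at day 4 and 7.94 and 8.15 at day 7. The days did not overlap, although the day 4 arrays lay 0.63 apart. Ldha was 2.03-fold lower at day 7 (difference -1.02 log2, SE 0.223, adjusted p = 0.0293). Without day 7 replicate 1 or 2 the adjusted p was 0.192 or 0.108. Ldhb read 10.89 and 10.87 at day 4 and 10.77 and 10.87 at day 7, a log2 difference of -0.056 (adjusted p = 0.885).

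In all, 3 of 15 tested enzymes were called lower (20%, against 4.33% of all genes), 12 not called and 0 higher (against 6.15%). The median log2 difference of the enzymes was -0.11 (-0.21 to -0.11 with 1 array left out). The enzymes called lower were in each case 1 isoform of a step that has several. Without day 7 replicate 1 the number was 1, and with a variance prior that follows signal level it was 5.

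**Figure D2:**
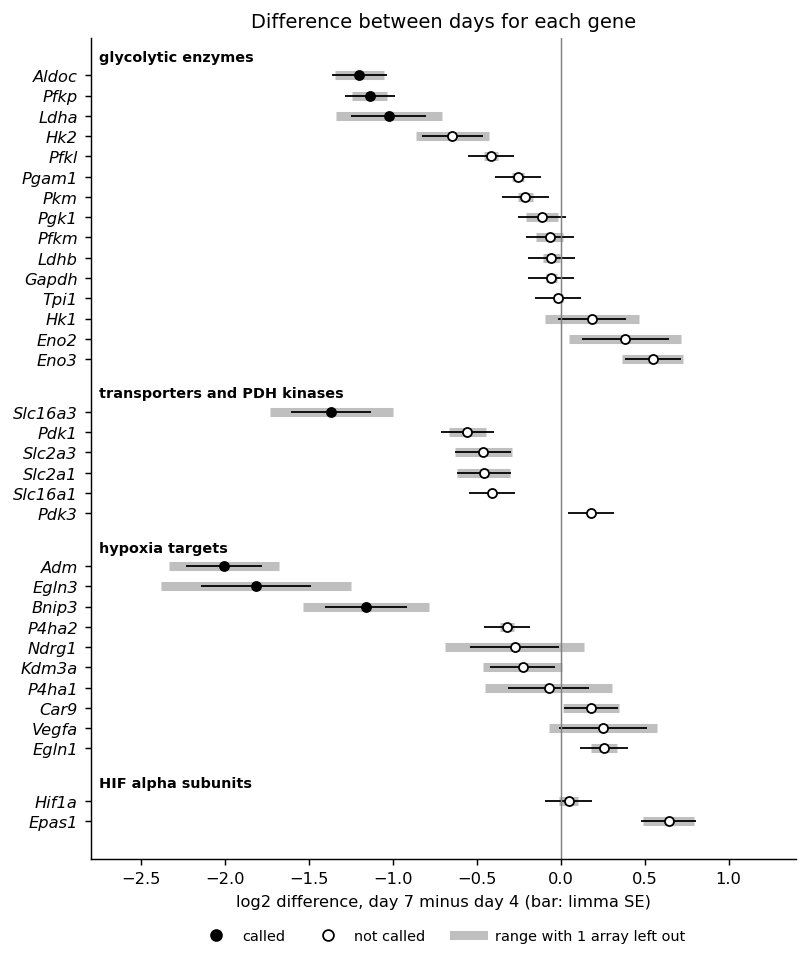
Log2 difference, day 7 minus day 4, of each tested gene (x axis), with limma's SE as a thin bar and the range with 1 array left out as a grey bar. Filled circles mark the 7 called genes, all with negative values between -1.02 (Ldha) and -2.00 (Adm).

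Among carriers, Slc16a3 (MCT4), a lactate exporter of highly glycolytic cells, read 10.38 and 10.39 at day 4 and 8.65 and 9.39 at day 7. The fall was present in both day 7 arrays but was larger in replicate 1. It amounted to 2.58-fold (log2 difference -1.37, SE 0.238, adjusted p = 0.0126). Without day 7 replicate 1 it was 2.00-fold, with an adjusted p of 0.0532. Another probe set, which names Slc16a3 together with Csnk1d, did not fall. It read 9.37 and 9.52 at day 4 and 9.52 and 9.59 at day 7, a log2 difference of 0.11, and which gene it follows was not tested. Slc16a1 (MCT1), the widely expressed lactate carrier, read 11.76 and 11.74 at day 4 and 11.34 at day 7 in both arrays. Its days were well apart for so small a change, a log2 difference of -0.41 that was not called (adjusted p = 0.118).

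With the probe sets used, the glucose transporter genes gave nearly the same difference. Slc2a1 (GLUT1) read 13.07 and 13.15 at day 4 and 12.50 and 12.81 at day 7, a log2 difference of -0.46 (SE 0.161, adjusted p = 0.138). Slc2a3 (GLUT3), the high-affinity transporter of neurons and embryos, read 11.91 and 12.05 at day 4 and 11.35 and 11.69 at day 7, also -0.46 (SE 0.167, adjusted p = 0.149). Both day 7 arrays lay below day 4 for each gene, with replicate 1 the lower. Neither was called, and both were called when the variance prior followed signal level, with a lowest adjusted p of 0.00939 for Slc2a1 and 0.0205 for Slc2a3. Slc2a1 had a mean of 12.88 over the 4 arrays, near the highest gene mean of 13.64. Whether signal this high still follows the amount of RNA was not tested. A dimmer probe set naming Slc2a1 alone read 6.21 and 6.38 at day 4 and 5.70 and 5.66 at day 7, a log2 difference of -0.61.

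Pyruvate dehydrogenase kinases hold pyruvate back from the mitochondria. Pdk1, a HIF target, read 9.35 and 9.12 at day 4 and 8.57 and 8.78 at day 7. The days did not overlap, and the log2 difference of -0.56 (SE 0.158) was not called (adjusted p = 0.0745, 0.0258 to 0.396 over the alternatives). Pdk3 read 10.12 at day 4 in both arrays and 10.31 and 10.28 at day 7, a log2 difference of 0.18 (adjusted p = 0.535). Of the 6 carrier and kinase genes 1 was called lower (16.7%, against 4.33% of all genes) and the median log2 difference was -0.46.

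The hypoxia targets divided into a few with steep falls and a majority without a call. Egln3 (PHD3), a prolyl hydroxylase that HIF itself induces, read 10.46 and 10.55 at day 4. At day 7 it read 8.13 in replicate 1 and 9.25 in replicate 2, so both were lower but they lay 1.13 apart. Egln3 was 3.52-fold lower at day 7 (difference -1.81 log2, SE 0.330, adjusted p = 0.0149). Leaving out day 7 replicate 1 gave 2.38-fold and leaving out replicate 2 gave 5.20-fold, and the gene was called in both cases. Egln1 (PHD2), the main oxygen sensor of most cells, read 9.41 and 9.43 at day 4 and 9.60 and 9.76 at day 7, a log2 difference of 0.26 that was not called (adjusted p = 0.352).

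Adm encodes adrenomedullin, a secreted peptide that acts on vessels. It read 6.91 and 6.26 at day 4 and 4.47 and 4.68 at day 7. The days were far apart, and Adm had the largest fall of the 33 genes, 4.01-fold (log2 difference -2.00, SE 0.227, adjusted p = 0.00219). Its day 7 mean of 4.58 was under the 25th percentile of gene means (4.60), where background can make a fold too small. Vegfa, the main growth factor of vessels and the best known HIF target, read 9.16 and 9.71 at day 4 and 9.37 and 10.01 at day 7. Its days overlapped and its log2 difference was 0.25 (adjusted p = 0.672).

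Bnip3 and Bnip3l encode mitophagy receptors of the outer mitochondrial membrane. Bnip3 read 9.88 and 9.77 at day 4 and 8.29 and 9.04 at day 7. It was 2.24-fold lower (log2 difference -1.16, SE 0.243, adjusted p = 0.0255). The adjusted p was 0.0637 when day 4 replicate 1 was left out and 0.11 when day 7 replicate 1 was. Bnip3l shares its probe set with its pseudogene Bnip3l-ps. That probe set read 12.11 and 12.15 at day 4 and 12.09 and 12.22 at day 7, with overlapping days (adjusted p = 0.968).

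Collagen prolyl hydroxylases are needed to fold collagen and their genes respond to HIF. P4ha1 read 10.08 and 10.02 at day 4 and 9.60 and 10.35 at day 7, so replicate 1 lay below both day 4 arrays and replicate 2 above them. Its log2 difference was -0.071 (adjusted p = 0.922). P4ha2 read 7.44 and 7.51 at day 4 and 7.11 and 7.20 at day 7, days apart but not called (log2 difference -0.32, adjusted p = 0.227).

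Ndrg1, a stress-responsive gene, split in the same manner as P4ha1: 8.74 and 8.96 at day 4 against 8.16 and 8.99 at day 7 (adjusted p = 0.641). Kdm3a, a histone H3K9 demethylase induced by HIF, read 9.95 and 9.72 at day 4 and 9.37 and 9.84 at day 7 (adjusted p = 0.593). Car9, a carbonic anhydrase widely used as a marker of hypoxia, read between 5.81 and 6.18 in all 4 arrays (adjusted p = 0.614). The probe set of Ankrd37, shared with Lrp2bp, read between 5.67 and 6.49 over the 4 arrays (adjusted p = 0.498). With the probe sets used, none of these 4 genes had days that stood apart. A dimmer probe set naming Ndrg1 alone read 6.39 and 6.46 at day 4 and 5.82 and 6.21 at day 7. Its days stood apart, with a log2 difference of -0.42. A dimmer probe set naming Car9 alone also had days apart, but higher at day 7, with a log2 difference of 0.077.

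Of 10 tested hypoxia targets 3 were called lower (30%, against 4.33% of all genes), 7 not called and 0 higher (against 6.15%). The median log2 difference was -0.25, with a range from -2.00 to 0.26. The sign of that median rested on 1 array: leaving out day 7 replicate 1 gave 0.073, and leaving out replicate 2 gave -0.45.

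The HIF alpha genes themselves were not called. Hif1a read 10.68 and 10.62 at day 4 and 10.75 and 10.63 at day 7, a log2 difference of 0.047 (adjusted p = 0.907). A dimmer probe set naming Hif1a alone read 7.36 and 7.54 at day 4 and 6.22 and 6.58 at day 7, a log2 difference of -1.05, so the probe sets disagree. Epas1 (HIF-2 alpha), known from endothelium and neural crest derivatives, read 7.81 and 7.64 at day 4 and 8.21 and 8.52 at day 7. Its days did not overlap, and its log2 difference of 0.64 (SE 0.164) had the highest value of the 33 genes but lay just past the threshold (adjusted p = 0.0523, 0.0241 to 0.321 over the alternatives). HIF alpha proteins are controlled mainly by destruction, which arrays of RNA do not measure.

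The hypoxia group separated the day 7 arrays from each other. All 10 tested hypoxia targets read higher in day 7 replicate 2 than in replicate 1, as did 47.3% of all genes. For 5 of the 10 (Egln3, Ndrg1, P4ha1, Bnip3 and Vegfa) the gap was at least 0.5 log2, a size reached by 3.26% of all genes. The median gap was 0.56 for the hypoxia targets, 0.26 for carriers and kinases, 0.085 for the enzymes and -0.014 for all genes. The gap of 1.13 in Egln3 was matched or exceeded in size by 0.185% of genes. Slc16a3 (0.74) and Eno2 (0.67) also exceeded 0.5.

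At day 4 the median gap of the hypoxia targets was -0.012, and 5 of 10 were higher in replicate 2, against 51.5% of all genes. Single genes departed from that median: Vegfa already had a gap of 0.55 at day 4, while Adm had -0.65. Eno2, of the enzymes, had 0.49 at day 4. The retinal and eye field markers differed between replicates on both days: 9 of 9 were higher in replicate 2 at day 4, with a median of 0.43, and 7 of 9 at day 7, with a median of 0.52. Endoderm markers were higher in replicate 2 in 6 of 10 cases at day 4 (median 0.24) and in 8 of 10 at day 7 (median 0.39). A day 7 gap of at least 0.5 log2 was found in 5 of 9 eye field and 4 of 10 endoderm markers. It was found in 0 of 10 neural progenitor markers and 3.26% of all genes. The part of cell makeup, culture or oxygen in these gaps was not tested. Without day 7 replicate 1 the log2 differences of P4ha1 (0.31) and Ndrg1 (0.14) were above 0, and without replicate 2 they were -0.45 and -0.69.

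**Figure D3:**
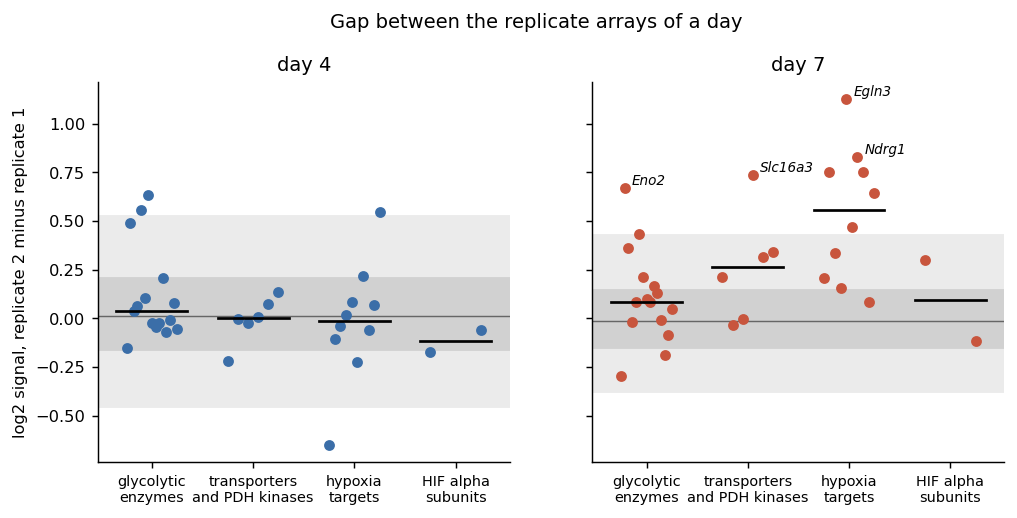
Log2 signal of replicate 2 minus replicate 1 (y axis) for each tested gene by group (x axis), at day 4 (left) and day 7 (right). Black bars are group medians. Light and dark grey bands hold the central 90% and 50% of all genes, and the thin line is their median. At day 7 all 10 hypoxia targets lie above 0, with Egln3 at 1.13.

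Related genes that serve the same step can be set against each other within an array, which removes any difference in total signal. Only the change of such a difference between days is read here, since the levels of different probe sets are not comparable. Among 10 pairs the days stood apart for 8. For single genes, which are an unlike measure, the days stood apart in 50.8% of cases. No such share was computed for other pairs of genes. The pairs were picked from the listed genes and some share a gene, so these shares cannot be compared. With 2 arrays a day an exact permutation test cannot give a two-sided p below 0.333, so no pair could pass a threshold, before or after adjustment.

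Egln3 fell relative to Egln1 by 2.07 log2 (4.21-fold), from 1.05 and 1.12 at day 4 to -1.48 and -0.50 at day 7. Ldhb minus Ldha went from 2.13 and 1.48 to 2.83 and 2.72, a shift of 0.97 log2 towards Ldhb. Slc16a3 minus Slc16a1 shifted by -0.96 and Hk2 minus Hk1 by -0.83, both away from the inducible member. Pdk3 minus Pdk1 shifted by 0.73 and Pfkp minus Pfkl by -0.72. Epas1 minus Hif1a shifted by 0.60 and Pfkm minus Pfkl by 0.35. Slc2a3 minus Slc2a1, with the brighter Slc2a1 probe set, stayed between -1.16 and -1.10 in all 4 arrays, a shift of -0.0043. For P4ha2 minus P4ha1 the days overlapped. The exact permutation p was 0.333 for each of the 8 pairs with separate days and 1 for the other two.

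**Figure D4:**
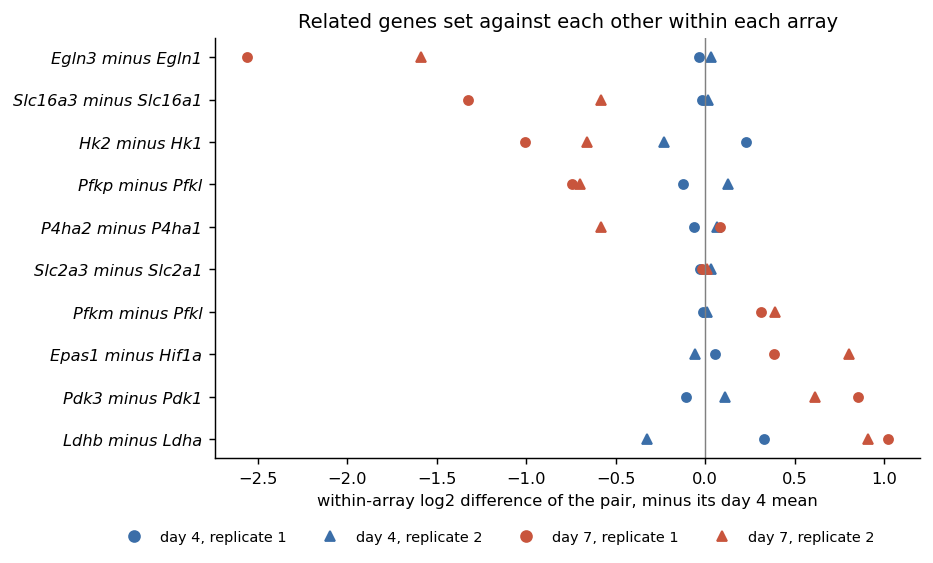
Within-array log2 difference of each pair of related genes, minus its day 4 mean (x axis), in rows ordered by the shift between days. Blue is day 4, red is day 7, circles are replicate 1 and triangles replicate 2. Egln3 minus Egln1 shifted furthest, by -2.07, and the 4 marks of Slc2a3 minus Slc2a1 lie on each other.

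Of 33 further hypoxia targets, 6 were called lower (18.2%, against 4.33% of all genes) and 2 higher (6.06%, against 6.15%), with a median log2 difference of -0.12. The largest falls were in Bhlhe41, a clock and hypoxia repressor (2.78-fold, adjusted p = 0.00109), Stc1, a secreted glycoprotein (2.57-fold, adjusted p = 0.0148, and 0.068 at most over the alternatives), and Ier3, a stress response gene (2.57-fold, adjusted p = 0.00558). Cxcr4, a chemokine receptor gene that is also in the endoderm marker list, rose 5.64-fold (adjusted p = 0.000566). Epo, the erythropoietin gene, rose 2.07-fold (adjusted p = 0.00915, and 0.23 without day 7 replicate 2). Of these 33, 25 read higher in day 7 replicate 2, as did all 10 tested hypoxia targets above and 47.3% of all genes. Their median gap was only 0.12, against 0.56 for those 10 targets, and lay between the quartiles of all genes (-0.15 and 0.14). Replicate 2 was higher by at least 0.5 log2 in 6 of the 33, against 5 of those 10 and 3.26% of all genes.

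The 8 other lists of related genes, of 7 to 16 tested genes each, had at most 1 call in each direction, too few to set against the 4.33% and 6.15% of all genes. Among HIF partners and genes of oxygen-dependent turnover 1 of 15 rose and 1 fell. Arnt2, the HIF partner of neural tissue, rose 2.20-fold, from 8.17 and 8.25 to 9.45 and 9.25 (adjusted p = 0.00372). Hif3a, whose product can oppose the other HIFs, was 2.11-fold lower, from 8.10 and 8.50 to 6.99 and 7.46 (adjusted p = 0.021). The call of Hif3a was lost without day 4 replicate 2 or day 7 replicate 1 (highest adjusted p 0.15).

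Of 14 other sugar and lactate carriers and their partners, 1 rose and 1 fell. Emb, the embigin gene, whose product escorts monocarboxylate carriers to the cell surface, was 2.25-fold lower (12.08 and 12.22 against 10.91 and 11.06, adjusted p = 0.00326). Slc2a4 (GLUT4), the insulin-responsive transporter, rose 2.10-fold from 6.04 and 6.03 to 7.03 and 7.17 (adjusted p = 0.00403). Both were called with each array left out.

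Of 16 other glycolysis enzymes Pfkfb4, which makes and breaks down an activator of phosphofructokinase, rose 1.76-fold (adjusted p = 0.0163), and the testis isoform Ldhc was 1.62-fold lower (adjusted p = 0.023). Among 11 genes of pyruvate entry into mitochondria Mpc1, a subunit of the pyruvate carrier, rose 2.19-fold (8.84 and 8.13 against 9.63 and 9.61, adjusted p = 0.0238). Of 7 gluconeogenesis genes Slc37a4, the glucose 6-phosphate transporter of the endoplasmic reticulum, rose 2.18-fold (adjusted p = 0.0117). These 4 genes were not called without day 7 replicate 1 or without day 7 replicate 2. Ldhc was not called without day 4 replicate 1 either.

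Of 9 glycogen genes Gyg, the glycogenin that primes glycogen, rose 2.21-fold, from 9.75 and 9.74 to 10.89 and 10.88 (adjusted p = 0.00263), and 0 fell. Of 8 pentose phosphate genes Prps2, which makes phosphoribosyl pyrophosphate, was 2.13-fold lower (adjusted p = 0.00678, and 0.0638 at most over the alternatives). Of the 8 genes of the MYC family and related sugar-responsive regulators 0 were called. Mycl had the largest difference there (log2 0.59, adjusted p = 0.0836).

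**Figure D5:**
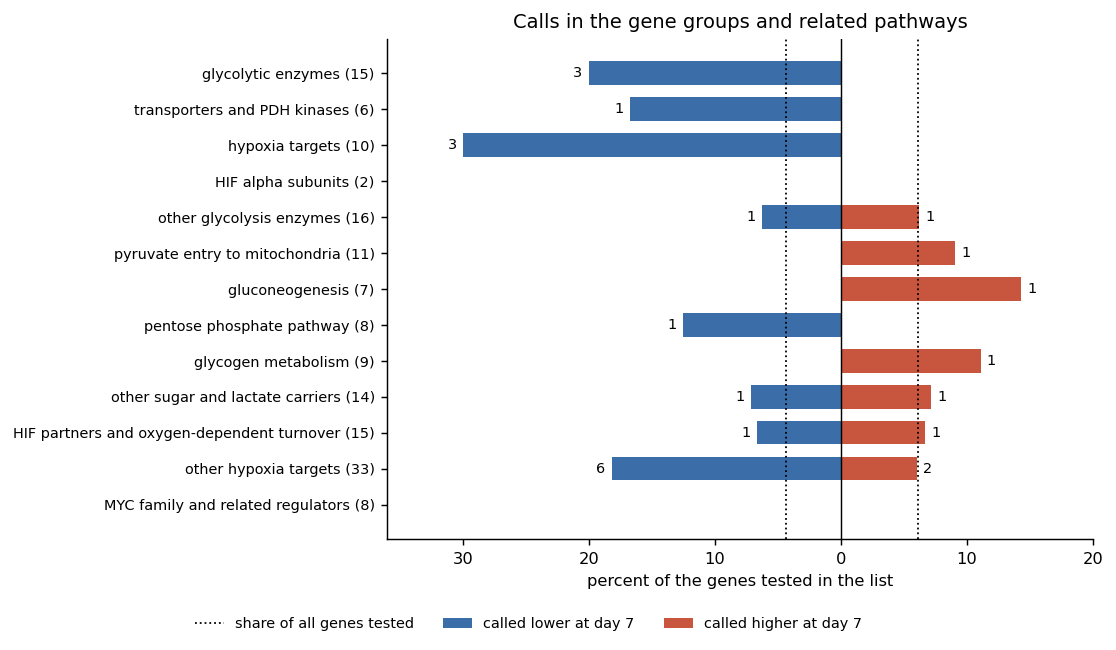
Percent of the tested genes of each group called lower (blue, to the left) or higher (red, to the right) at day 7, with the number of called genes at each bar and the number tested in brackets. Dotted lines give the share of all genes, 4.33% lower and 6.15% higher. Among the 13 groups drawn, which leave out the cell type markers, hypoxia targets (30%) and glycolytic enzymes (20%) have the longest bars to the left.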

How the data were processed

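Per the submitters' processing notes, the authors used RMA in Partek 6.5. They deposited 1 log2 value for each probe set and array. RMA settings and the genome build are not given in the sources used here. RMA forces the arrays to 1 distribution, which hides any change common to most genes. Per the labels' protocols, total RNA was copied to sense-strand cDNA and biotin-labelled.

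Of 41345 probe sets, 23521 named 1 gene. Where a gene had several, the brightest on average was used. Groups and replicate numbers came from the sample titles. Day 7 was compared with day 4 by limma 3.58.1 (lmFit and eBayes, R 4.3.3) over all 22180 genes, two-sided, with 2 residual degrees of freedom and Benjamini-Hochberg adjustment. A gene is called at an adjusted p under 0.05. The fit was also run on 10 simulated data sets with 200 changed genes each and spreads drawn from its own prior. Such a run checks the code and cannot show how well the model holds for these arrays. Values for probe sets naming several genes came from a fit that kept those probe sets. The 15 alternatives were the replicate block, each array left out, quantile normalization, median centring, 2 filters on low genes, an intensity trend with and without robust estimation, averaged probe sets per gene, probe sets with several gene names kept, and 2 other thresholds. Ranges of adjusted p are over the fits among them.

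Members and lists were chosen with earlier results of these data known. All members are named, and of other lists up to 3 called genes each way, or the largest difference where none was called. Permutation tests used SciPy 1.17.1. The number of arrays limits the precision.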

Additional observations from a re-analysis of the deposited data

How the results depend on the processing

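Across 15 alternatives the 33 genes gave 493 further values, of which 441 kept their direction and their side of the threshold, 31 passed it, 10 no longer passed it and 11 changed sign. Over all genes 2324 were called, 887 to 2500 with 1 array left out and 1078 at an adjusted p under 0.01. Of the 33, the 7 called lower became 3 to 7 with 1 array left out, 3 at an adjusted p under 0.01, and 13 with an intensity trend, with or without robust estimation. Enzymes called lower (3) became 1 to 3 with 1 array left out and 5 with an intensity trend, with or without robust estimation, or on genes above the 50th percentile. Hypoxia targets called lower (3) became 1 at an adjusted p under 0.01. Genes called higher (0) became 1 on genes above the 25th percentile and 2 above the 50th, with either intensity trend, or at an adjusted p under 0.1. The same-numbered arrays are only numbered alike. Their deviations correlated with r = 0.186 over genes, and a fit with the replicate block called 2770 genes, 8 of the 33 lower (Hk2 added), 4 enzymes, 3 hypoxia targets and 0 higher.

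The 11 sign changes of single genes were all in uncalled genes, and the median difference of the hypoxia targets (-0.25) turned to 0.073 without day 7 replicate 1. With 1 array left out the log2 difference ranged from -0.091 to 0.47 for Hk1, -0.15 to 0.016 for Pfkm, -0.041 to 0.014 for Tpi1, -0.070 to 0.57 for Vegfa, -0.45 to 0.31 for P4ha1, -0.69 to 0.14 for Ndrg1, -0.46 to 0.0078 for Kdm3a and -0.011 to 0.11 for Hif1a. The mean of its probe sets gave Hif1a -0.50. With 1 array left out, its day rests on 1 sample assumed to vary like the other day. The causes were not tested.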
